A study of Mus musculus with 16 samples.

Results

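Convergent CDR3s of the T cell receptor β chain (TCRβ) are described here, that is, CDR3 amino acid sequences that were listed in a tumor with 3 or more different nucleotide rearrangements. The CDR3 is the third complementarity-determining region, the stretch formed where the V, D and J gene segments are joined. Members were selected on the deposited list of in-frame rearrangements of each sample alone, with no reference to treatment, and 1631 of the 114633 combinations of sample and CDR3 met the rule. They were made of 6875 rearrangements and comprised 1224 different CDR3s out of 92981. The number of rearrangements chose the members, so it is given as a description and not as a result.

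Each developing T cell assembles its own β chain gene by cutting and joining segments, trimming their ends and inserting untemplated bases at the joints. Since most amino acids have several codons, separate recombination events can give the same protein. CDR3s that need few inserted bases are known to be made repeatedly and to recur in many animals, where they are called public, and convergence of unrelated rearrangements on a single CDR3 within an animal is often read as a sign of selection by antigen.

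T cells were taken from subcutaneous tumors of KPC.Luc, a luciferase-expressing mouse pancreatic ductal adenocarcinoma line, in C57BL/6 females. Per the labels of these samples, the cells were isolated by magnetic selection for CD90.2, a pan-T cell surface marker that does not separate T cell subsets, a step that the study's methods do not give for the TCRβ sequencing. Over 10 days, each mouse was given 10 µg of a peptide daily and 200 µg of an antibody every 3 days. Scrambled peptide with isotype IgG served as control, the VIP receptor antagonist peptide ANT008 was given with IgG (ANT008 group) or together with anti-PD-1 (combination), and anti-PD-1 was given with scrambled peptide (anti-PD-1 group), so that 4 groups of 4 mice gave 1 sample per mouse. The labels give the molecule as RNA while the study's text also names DNA, so whether a template stands for a cell or for a transcript cannot be told apart, and no expression values were used here to check cell identity beyond the in-frame TCRβ rearrangements themselves.

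Productive templates, the counts of starting molecules behind in-frame rearrangements without a stop codon, spanned 7180 to 72588, and the shallowest and the deepest sample were replicates 4 and 3 of the anti-PD-1 group. Any count of convergent CDR3s depends on this depth.

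The bases behind the CDR3s showed at once that the members were of more than a single kind. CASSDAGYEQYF had 29 rearrangements in control replicate 4, the most this CDR3 reached in any mouse, yet only 2 different CDR3 base sequences lay beneath them, each spread over rearrangements that differed upstream of the CDR3. Lower case gives the CDR3 bases read, 5′ to 3′ without the last codon, and the capital marks the base that differs from the first sequence.
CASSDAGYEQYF, 15 rearrangements, 1079 templates: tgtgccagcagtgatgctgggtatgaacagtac
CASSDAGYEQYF, 14 rearrangements, 928 templates: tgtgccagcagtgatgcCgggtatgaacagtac
The first of these needed 0 inserted bases by the service's annotation and the second 2, and both were read with TCRBV13-03 and TCRBJ02-07 as leading genes.

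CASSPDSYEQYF in anti-PD-1 replicate 1 is shown because 5 different base sequences and more than a single V gene converged on it, in 12 rearrangements. Each line pools the rearrangements with its CDR3 bases and names the V gene of 1 with the most templates. Together, the 12 rearrangements were listed with 6 V genes. Capitals mark bases that differ from the first line.
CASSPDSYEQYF, TCRBV29-01, 369 templates: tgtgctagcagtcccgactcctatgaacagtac
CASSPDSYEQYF, TCRBV29-01, 117 templates: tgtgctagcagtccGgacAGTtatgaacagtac
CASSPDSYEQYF, TCRBV14-01, 103 templates: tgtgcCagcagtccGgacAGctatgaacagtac
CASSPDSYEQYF, TCRBV14-01, 38 templates: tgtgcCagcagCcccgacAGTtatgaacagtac
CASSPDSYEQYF, TCRBV29-01, 9 templates: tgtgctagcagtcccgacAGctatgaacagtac
The other 4 differed from the first at 2 to 5 bases, and each of them used another codon for the serine next to the aspartate.

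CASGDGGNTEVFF in combination replicate 2 is shown as the case in which every rearrangement had its own CDR3 base sequence (5 of 5) with the same V and J genes, TCRBV13-02 and TCRBJ01-01. Capitals again mark differences from the first line, and all of them lie in the codons for the aspartate and the glycines after it.
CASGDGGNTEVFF, 8 templates: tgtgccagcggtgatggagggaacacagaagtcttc
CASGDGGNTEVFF, 3 templates: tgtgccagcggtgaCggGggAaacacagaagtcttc
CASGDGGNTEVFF, 1 template, 3 inserted bases: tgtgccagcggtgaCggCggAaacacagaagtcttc
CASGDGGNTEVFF, 1 template, 3 inserted bases: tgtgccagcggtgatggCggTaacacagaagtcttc
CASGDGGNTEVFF, 1 template, 0 inserted bases: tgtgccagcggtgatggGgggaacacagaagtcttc

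The member with the largest template share, a 16-residue CDR3 of TCRBV01-01 and TCRBJ02-02 in control replicate 2, is shown in full because it is the opposite case. Its 8 rearrangements had a single CDR3 base sequence, here in capitals, and differed only in the V part, in lower case.
Leading rearrangement, 7510 templates: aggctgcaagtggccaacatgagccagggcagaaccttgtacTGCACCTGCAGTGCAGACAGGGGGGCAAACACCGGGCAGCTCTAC
The second, 2 templates: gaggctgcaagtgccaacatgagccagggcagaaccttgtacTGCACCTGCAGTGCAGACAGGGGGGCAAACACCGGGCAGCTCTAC
The third, 2 templates: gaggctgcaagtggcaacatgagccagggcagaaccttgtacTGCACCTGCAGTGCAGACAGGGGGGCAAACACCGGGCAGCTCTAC
The fourth, 2 templates: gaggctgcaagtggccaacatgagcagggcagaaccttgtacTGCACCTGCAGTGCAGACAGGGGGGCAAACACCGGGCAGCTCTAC
The fifth, 2 templates: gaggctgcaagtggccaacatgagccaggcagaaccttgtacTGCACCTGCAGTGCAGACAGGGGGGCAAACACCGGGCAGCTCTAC
All 7 further rearrangements equalled the leading one with 1 base of the V part missing, so that the 87-base read began 1 base earlier, and none had more than 2 templates.

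Over all members, most further rearrangements had the CDR3 bases of the leading one, while 584 of 1631 members (35.8%) had a single CDR3 base sequence throughout. In each member the rearrangement with the most templates was called leading, which left 5244 further rearrangements. Of these, 3066 (58.5%) had exactly the CDR3 bases of the leading rearrangement and differed from it only upstream, 627 (12%) differed at 1 CDR3 base and 1551 (29.6%) at 2 or more. The further rearrangements with the same CDR3 bases were small, with a median of 1 template, and 85% of them had a single template.

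Among the further rearrangements with the leading CDR3 bases, 1545 were assigned to the leading V gene. Of those, 787 (50.9%) equalled the leading rearrangement with 1 base missing, 97 (6.28%) had 1 base extra, 131 (8.48%) had 1 base changed and 530 (34.3%) differed otherwise. The forms with 1 base missing were found in all 16 samples, in 452 members, with at most 5 templates each.

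Another 1450 with the leading CDR3 bases were assigned to a different V gene, and 784 of these (54.1%) to a V gene of the same family. The most frequent pair was a leading TCRBV13-02 with a further TCRBV13-01 (192 rearrangements), followed by TCRBV13-01 with TCRBV13-02 (149) and TCRBV13-02 with TCRBV13-03 (105). TCRBV12-01 was paired with TCRBV12-02 in 75. The TCRBV13 and TCRBV12 genes are close relatives within their families. Members led by TCRBV13-02 had the leading CDR3 bases in 85.9% of their further rearrangements, against 36.9% for TCRBV12-01 and 34.8% for TCRBV12-02.

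The share of further rearrangements with the leading CDR3 bases moved with the size of the leading rearrangement. It was 19.6% where the leading rearrangement had 1 template, 16.9% at 2 to 9 templates, 74.6% at 10 to 99, 89.1% at 100 to under 1000 and 93.5% at 1000 or more. The same CDR3 bases listed with several V genes were also seen among out-of-frame rearrangements, which encode no receptor. Among CDR3 base sequences whose largest rearrangement had 100 to under 1000 templates, 53.9% of 482 in-frame and 50% of 172 out-of-frame sequences carried 2 or more V genes, and at 1000 or more templates 92% of 50 and 83.3% of 12 did. What part copying errors, V gene assignment or true recombination had in these rearrangements was not tested.

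**Figure D1:**
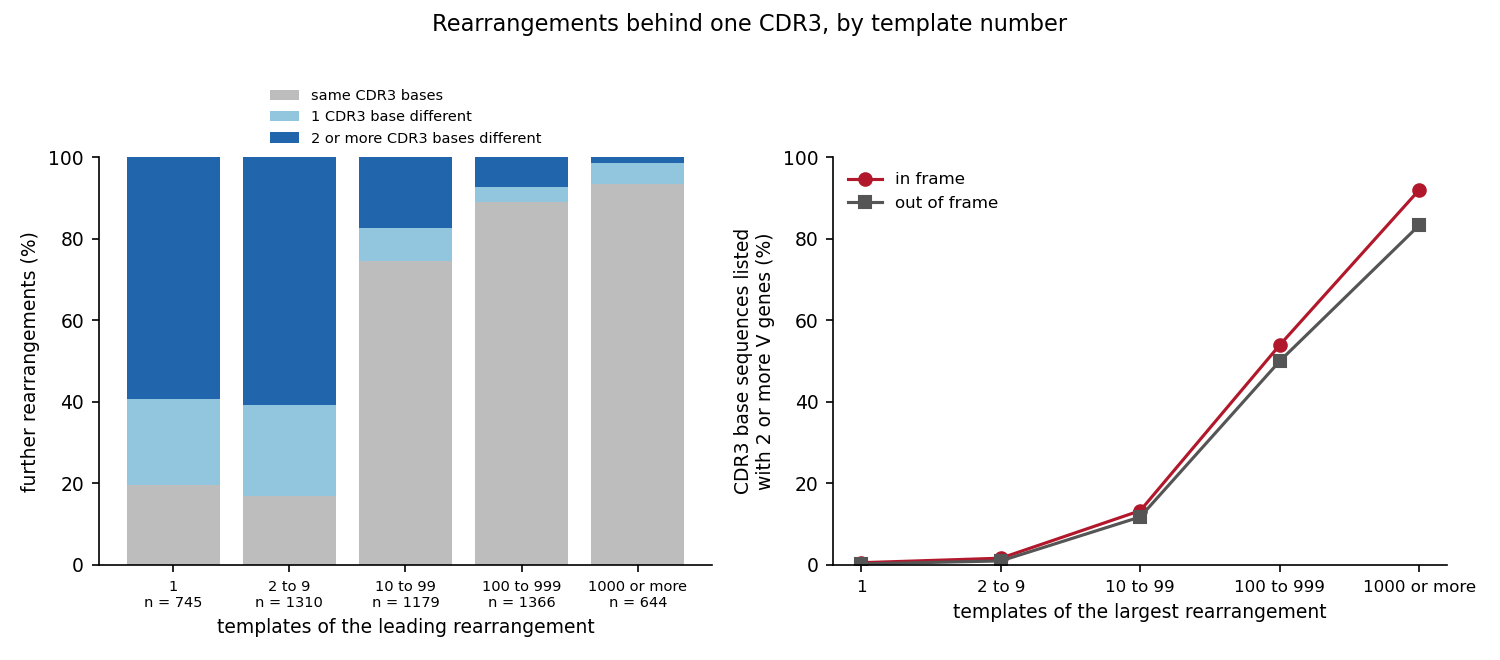
Left, further rearrangements of convergent CDR3s (percent, n under each bar) by the templates of the leading rearrangement, split by how many CDR3 bases differ from it. Right, CDR3 base sequences listed with 2 or more V genes (percent) in frame and out of frame; same-base forms made up 19.6% of further rearrangements at 1 leading template and 93.5% at 1000 or more, and the curves of both frames rise side by side.

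Because of this, the main results below are also given for the 668 members that kept 3 or more different CDR3 base sequences (41% of 1631), with rearrangements of equal CDR3 bases counted once. Of the other members, 379 had 2 CDR3 base sequences and 584 had 1. The members that kept 3 were mostly small: 67.7% of members with a leading rearrangement of 2 to 9 templates kept 3 CDR3 base sequences, compared with 7.69% at 100 to under 1000 templates and 5 of 49 members at 1000 or more.

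The rule took in nearly every large CDR3. Of the 52 CDR3s with 1000 or more templates 51 (98.1%) were convergent, of those with 100 to under 1000 templates 61%, of those with 10 to 99 templates 12.6% and of those with 3 to 9 templates 6.79%. With 3 CDR3 base sequences required, the shares in the same order were 11.5%, 5.15%, 3.47% and 4.35%. Members with exactly 3 rearrangements, just inside the threshold, numbered 991 and had a median of 5 templates and a mean of 2.54 inserted bases. The CDR3s just outside it, with 2 rearrangements, numbered 6467 and had a median of 2 templates and a mean of 2.95 inserted bases. At the other end, 70 members had 10 or more rearrangements, a median of 1122 templates and in 13 cases 3 or more CDR3 base sequences.

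Leaving out every rearrangement of 1 template, as a check on copying errors, left 170 of the 1631 members (10.4%), between 2 and 27 per sample. Of these, 69 had 3 or more CDR3 base sequences, and every sample kept between 1 and 8 of that kind. Leaving out only near copies, which had 1 base changed from a rearrangement with 10 or more times their templates, left 1607 members. Forms with 1 base missing or extra shift the read and were not counted as near copies, so this check did not remove them. Among sequences with a stop codon, 8 of 2270 translated CDR3s (0.352%) met the rule, compared with 1.42% in frame. These shares were not matched for size, as the lists held 2364 rearrangements with a stop codon and 126344 in frame. The part of size in this gap was not tested.

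Whether blocking the VIP receptor or PD-1 changes how often T cells in the tumor converge on the same CDR3 is asked by comparing each treated group with control. The numbers of convergent CDR3s per mouse overlapped between all groups. In the order of replicates, control mice had 38, 106, 121 and 75. ANT008 mice had 69, 137, 30 and 41. Anti-PD-1 mice had 96, 81, 216 and 15, the highest and the lowest value of the study, in its deepest and its shallowest sample. Combination mice had 153, 90, 201 and 162, of which 3 lay above every control mouse.

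On the log2 scale of the number plus 1, the combination exceeded control by 0.89 ± 0.72 (SE), which did not pass Dunnett's comparison with control run as an exact permutation test (two-sided over 63063000 assignments of samples to groups, p = 0.490, n = 4 per group). ANT008 and anti-PD-1 differed from control by -0.41 and -0.12 (exact permutation p = 0.898 and 0.996). The combination difference was 1.61 with CDR3 base sequences counted (exact permutation p = 0.309), 0.20 with rearrangements of 1 template left out and 0.25 at equal depth (p = 0.968 and 0.427 by the same exact test). At an equal depth of 7180 productive templates the numbers fell to between 12.7 and 22.4 per mouse, with group means of 14.1 ± 1.65 for control, 17.1 ± 4.09 for ANT008, 15.4 ± 2.07 for anti-PD-1 and 17.2 ± 3.95 for the combination (SD, n = 4). Relative to all productive CDR3s of the sample, convergent CDR3s made up 1.45% ± 0.45 in control, 1.31% ± 0.23 with ANT008, 1.24% ± 0.50 with anti-PD-1 and 1.504% ± 0.23 in combination mice. With 3 CDR3 base sequences required, the combination mice had 0.651% to 0.774% and the control mice 0.199% to 0.527%. These groups did not overlap, but the difference of 0.29 percentage points did not pass the test (exact permutation p = 0.175). The ANT008 mice had 0.198% to 0.646% and the anti-PD-1 mice 0.126% to 0.861%, the last above every combination mouse. Productive rearrangements averaged 11168 in combination and 6734 in control mice, and the part of this in the difference was not tested. The corresponding difference under the rule itself was 0.054 points (exact permutation p = 0.994). Under that rule at equal depth it was -0.25 (p = 0.513 by the same exact test). No equal-depth draw was made with 3 CDR3 base sequences required.

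The rule had taken in nearly every large CDR3, and convergent CDR3s held a large part of productive templates. They took 57%, 51.5%, 41.4% and 66.3% of productive templates in the control mice. In the ANT008 mice they took 47.8%, 34.2%, 47.3% and 40.6%, and in the anti-PD-1 mice 33.7%, 51.2%, 54.6% and 16.9%. In the combination mice they took 27.1%, 38.9%, 56.2% and 34.6%. The Wilson 95% interval of each share spanned between 0.724 and 1.82 percentage points and covers counting error only. The combination mean differed from control by -14.8 percentage points (SE 8.70, exact permutation p = 0.257), the anti-PD-1 mean by -14.9 (p = 0.253 by the same exact test) and the ANT008 mean by -11.6 (exact permutation p = 0.434), and the groups overlapped in each case. At equal depth these differences were -9.77, -8.16 and -5.28 points in the same order (exact permutation p = 0.337, 0.471 and 0.751).

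Members with 3 or more CDR3 base sequences numbered 7, 43, 46 and 15 in the control mice and 20, 64, 5 and 8 in the ANT008 mice. Anti-PD-1 mice had 48, 17, 107 and 3 of them and combination mice 84, 39, 74 and 88. Their template share was far smaller than that of all members, between 0.607% and 16.1% of productive templates. The group means were 6.57% ± 4.23 for control, 3.36% ± 3.20 for ANT008, 6.85% ± 6.35 for anti-PD-1 and 2.52% ± 0.75 for the combination (SD, n = 4), and the ranges overlapped. The differences from control were -4.05 points for the combination, -3.21 for ANT008 and 0.28 for anti-PD-1 (exact permutation p = 0.419, 0.601 and 0.999986).

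**Figure D2:**
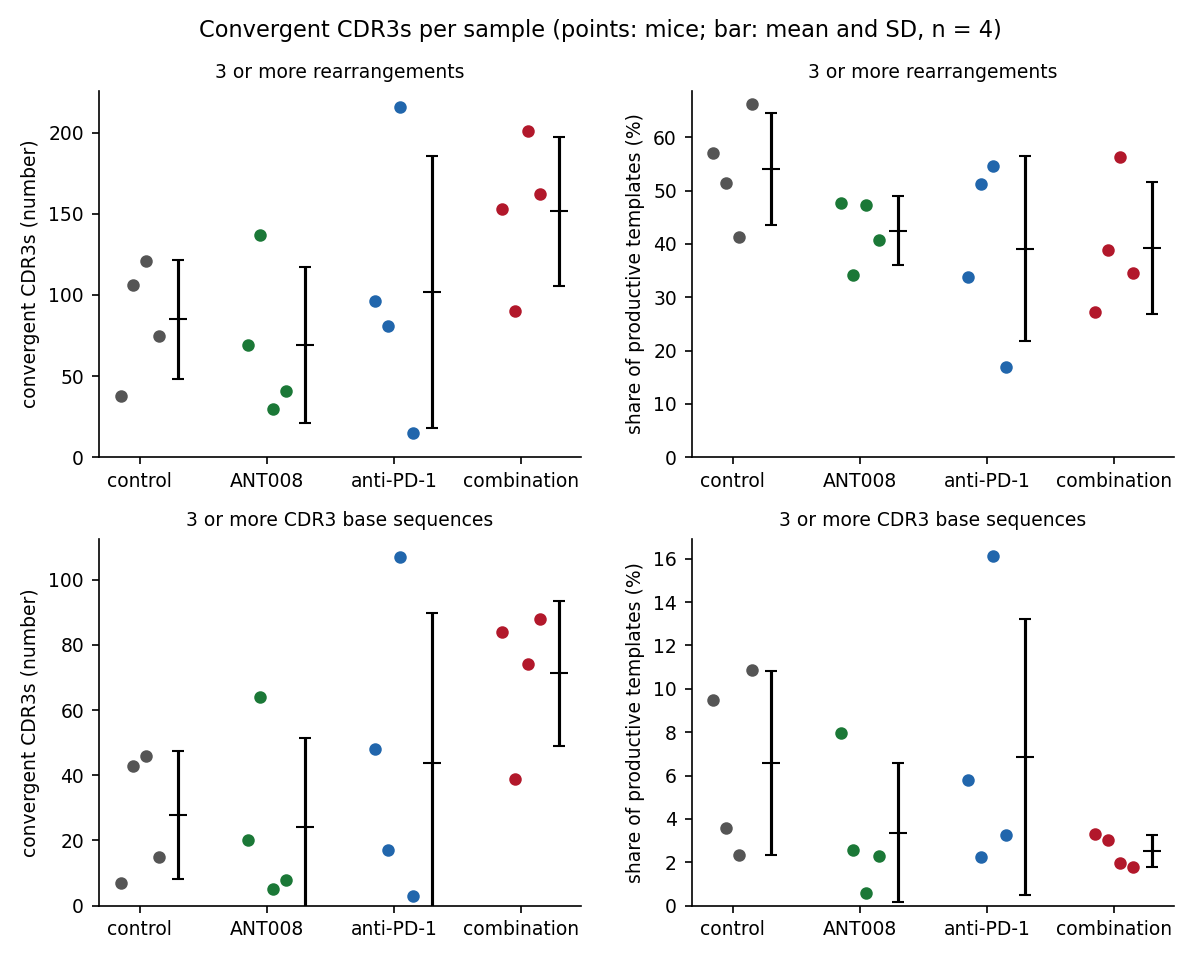
Number of convergent CDR3s (left) and their share of productive templates in percent (right) in each mouse, under the rule of 3 or more rearrangements (top) and with 3 or more CDR3 base sequences required (bottom). Points are mice, and the bars beside them give the mean and SD of 4 mice; 3 of the 4 combination mice lie above all control mice in number, and the template shares of the groups overlap.

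Templates were unevenly divided among the rearrangements of a member. The leading rearrangement held more than 90% of the templates in 530 members (32.5%), which had a median of 136 templates. It held more than 50% and up to 90% in 429, and 50% or less in 672, which had a median of 4 templates. Among the 668 members with 3 CDR3 base sequences, 25 had a leading share over 90%. Of the 31 such members with 100 or more templates, the second CDR3 base sequence held over 10% of the templates in 14 and at most 42.2%.

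The median leading share was 92.4%, 75%, 75% and 94.6% in the control mice and 50%, 69.4%, 62.5% and 50% in the combination mice, so that all 4 combination mice lay below all 4 control mice. The difference of -26.3 percentage points (SE 11.0) did not pass the test (exact permutation p = 0.0916, adjusted p = 0.999 over the 15 group comparisons). At equal depth it was -12.0 points (exact permutation p = 0.318), and with CDR3 base sequences counted -6.59 points (p = 0.503 by the same exact test). Without ANT008 replicate 2 the exact permutation p was 0.0397 for the same difference. Members had a median of 11 to 81 templates in the control mice and 5 to 14 in the combination mice. The part of this in the difference was not tested. With ANT008 the median leading shares were 87.5%, 50%, 89.8% and 91.8%, and with anti-PD-1 53.6%, 89.7%, 62% and 91.4%. The number of inserted bases in convergent CDR3s had group means of the sample medians between 2.17 with the combination and 2.50 with ANT008, against 2.46 in control. With CDR3 base sequences counted, ANT008, anti-PD-1 and the combination differed from control by 0.67, 0.17 and 0.24 inserted bases (exact permutation p = 0.0593, 0.861 and 0.704). None of the 15 group comparisons passed the test, and 0 had a raw exact permutation p under 0.05.

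Convergent CDR3s carried fewer inserted bases than CDR3s made by a single rearrangement. Inserted bases are those the service assigned to neither V, D nor J at the V-D and D-J joints, averaged over the rearrangements of a CDR3. The comparison CDR3s needed 3 or more templates, the minimum a member can have, and numbered 11256. Over the 16 samples, the sample means were 2.77 ± 0.40 inserted bases for members and 3.46 ± 0.11 for single-rearrangement CDR3s, a difference of -0.68 ± 0.10 (SE) that was negative in 15 of 16 samples (permutation test of paired differences over all sign flips, p = 6.1e-05, adjusted p = 6.1e-05 over 3 measures). The exception was control replicate 4, with 3.26 and 3.22 inserted bases. CDR3s of 2 rearrangements lay between, at 3.01 ± 0.26. Members with 3 or more CDR3 base sequences had 1.88 ± 0.40 and lay below single-rearrangement CDR3s in 16 of 16 samples. Members also had shorter CDR3s, 13.5 ± 0.20 against 13.9 ± 0.06 residues, in 16 of 16 samples (permutation p = 3.1e-05, the smallest that sign flips of 16 samples can give, adjusted p = 4.6e-05).

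Convergent CDR3s recurred in more mice. A member was found in 4.70 ± 0.74 of the other 15 samples on average and a single-rearrangement CDR3 in 1.05 ± 0.21, a difference of 3.65 ± 0.22 (SE) that held in 16 of 16 samples (permutation p = 3.1e-05, adjusted p = 4.6e-05). Members with 3 or more CDR3 base sequences were found in 8.42 ± 2.10 other samples. Members also had more templates than the CDR3s they were set against, with medians of 11 and 5, so the comparison is given within classes of template number. Among CDR3s with 3 to 9 templates, where both had a median of 4, members had 2.25 inserted bases and were found in 5.52 other samples, and single-rearrangement CDR3s had 3.43 and were found in 0.928. Among those with 10 to 99 templates, members had 2.71 inserted bases and were found in 4.30 other samples. Single-rearrangement CDR3s had 3.55 and were found in 1.17, with medians of 27 and 16 templates. Among those with 100 or more templates, members had 3.49 inserted bases and were found in 3.55 other samples. The 87 single-rearrangement CDR3s had 3.70 and were found in 1.40, with medians of 294 and 147 templates, so the larger classes were not matched in size. In that largest class the 316 members with fewer than 3 CDR3 base sequences had 3.61 inserted bases, and the 31 members with 3 or more had 2.29 and were found in 10.1 other samples.

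**Figure D3:**
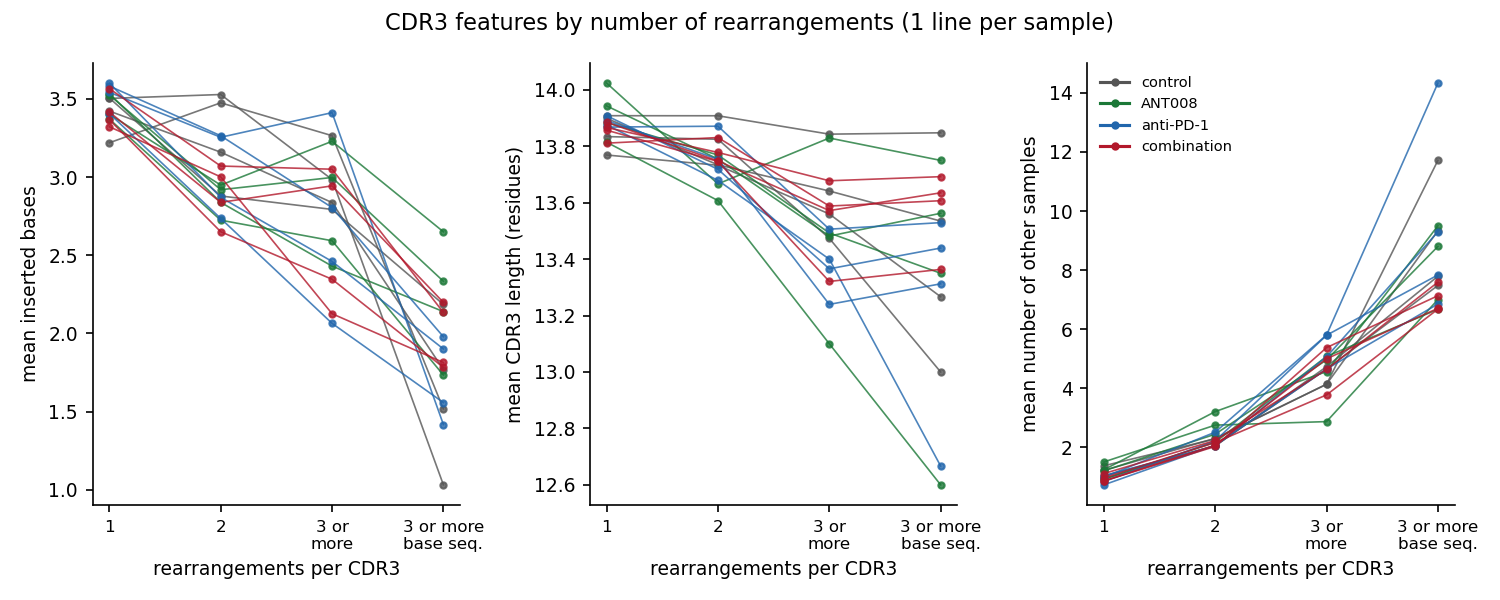
Mean inserted bases, mean CDR3 length in residues and mean number of other samples holding the CDR3, for CDR3s of 1 rearrangement with 3 or more templates, of 2, of 3 or more (members), and for members with 3 or more CDR3 base sequences. Each line is 1 of 16 samples, coloured by group; from the first class to the last, inserted bases went from 3.46 to 1.88 on average and other samples from 1.05 to 8.42, and the vertical axes do not start at 0.

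V and J gene use set members apart from the other productive CDR3s of the same sample. The V gene of the leading rearrangement was compared for 19 V genes, of which 8 passed an adjusted p of 0.05 (42.1% of those tested), 3 higher and 5 lower among members. For J genes, 6 of 12 passed (50%), 1 higher and 5 lower. These genes are all segments of the β chain locus, and the service's names were matched to gene symbols.

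TCRBV13-02 (Trbv13-2) led 18.8% ± 5.51 of members and 9.57% ± 1.12 of other CDR3s, a difference of 9.22 percentage points (SE 1.45) in the same direction in 15 of 16 samples (permutation test, adjusted p = 0.00029). TCRBV13-03 led 9.90% and 5.25% (permutation test, adjusted p = 0.00046), and TCRBV12-01 led 9.18% and 5.88% (adjusted p = 0.0059 by the same permutation test). Lower among members were TCRBV01-01 (1.10% and 5.204%), TCRBV05-01 (3.00% and 7.01%), TCRBV20-01 (1.14% and 3.16%), TCRBV17-01 (0.69% and 2.66%) and TCRBV02-01 (3.48% and 5.14%), with adjusted p between 0.00019 and 0.0183 in the same permutation test. TCRBV01-01, TCRBV05-01 and TCRBV17-01 were lower in 16 of 16 samples.

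Among members with 3 or more CDR3 base sequences the higher V genes were not the same. TCRBV13-02 led 6.15% of them, a difference of -3.57 percentage points from the other CDR3s (permutation test, adjusted p = 0.220), and TCRBV13-03 led 5.63%, 0.32 points above (adjusted p = 0.924 by the same permutation test). TCRBV12-01 led 13.8% and was 7.94 points above (permutation test, adjusted p = 0.0223). TCRBV01-01 and TCRBV20-01 were below in this set too, with differences of -4.11 and -2.76 points (permutation test, adjusted p = 0.0011 and 0.00055). TCRBV05-01 and TCRBV02-01 did not pass in this set (differences of -1.63 and -1.999 points, adjusted p = 0.314 and 0.220 in the same permutation test), and TCRBV17-01 led too few of its members to be tested. The 3 TCRBV13 genes also had the leading CDR3 bases in 79.6% to 85.9% of their further rearrangements, more than any other V gene that led more than 1 member, and the part of this in the V gene difference was not tested.

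The J gene TCRBJ02-07 was used by 36.3% ± 9.33 of members and 19.9% ± 0.60 of other CDR3s, higher in 16 of 16 samples by 16.4 percentage points (SE 2.34, permutation test, adjusted p = 0.00018), and it was 20.1 points higher among members with 3 CDR3 base sequences (permutation test, adjusted p = 0.00034). TCRBJ01-01 was lower in 16 of 16 samples (4.77% and 9.22%), as were TCRBJ02-05 (7.14% and 11.5%), TCRBJ02-04 (4.29% and 8.11%), TCRBJ02-02 (3.23% and 5.80%) and TCRBJ01-06 (0.88% and 3.24%) in 14 or 15 of 16, with adjusted p between 0.00018 and 0.0013 (permutation test). With 3 CDR3 base sequences required, 4 of 11 J genes passed, 2 of them in common with those above, TCRBJ02-07 and TCRBJ02-02 (-3.08 points, permutation test, adjusted p = 0.0060). TCRBJ01-01, TCRBJ02-05 and TCRBJ02-04 then did not pass (-1.56, -3.68 and -1.76 points, adjusted p = 0.311, 0.149 and 0.420 by the same permutation test), and TCRBJ01-06 led too few members to be tested. Rearrangements of a member rarely used more than a single J gene (9 of 1631 members), while 77.4% of members were listed with more than a single V gene.

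**Figure D4:**
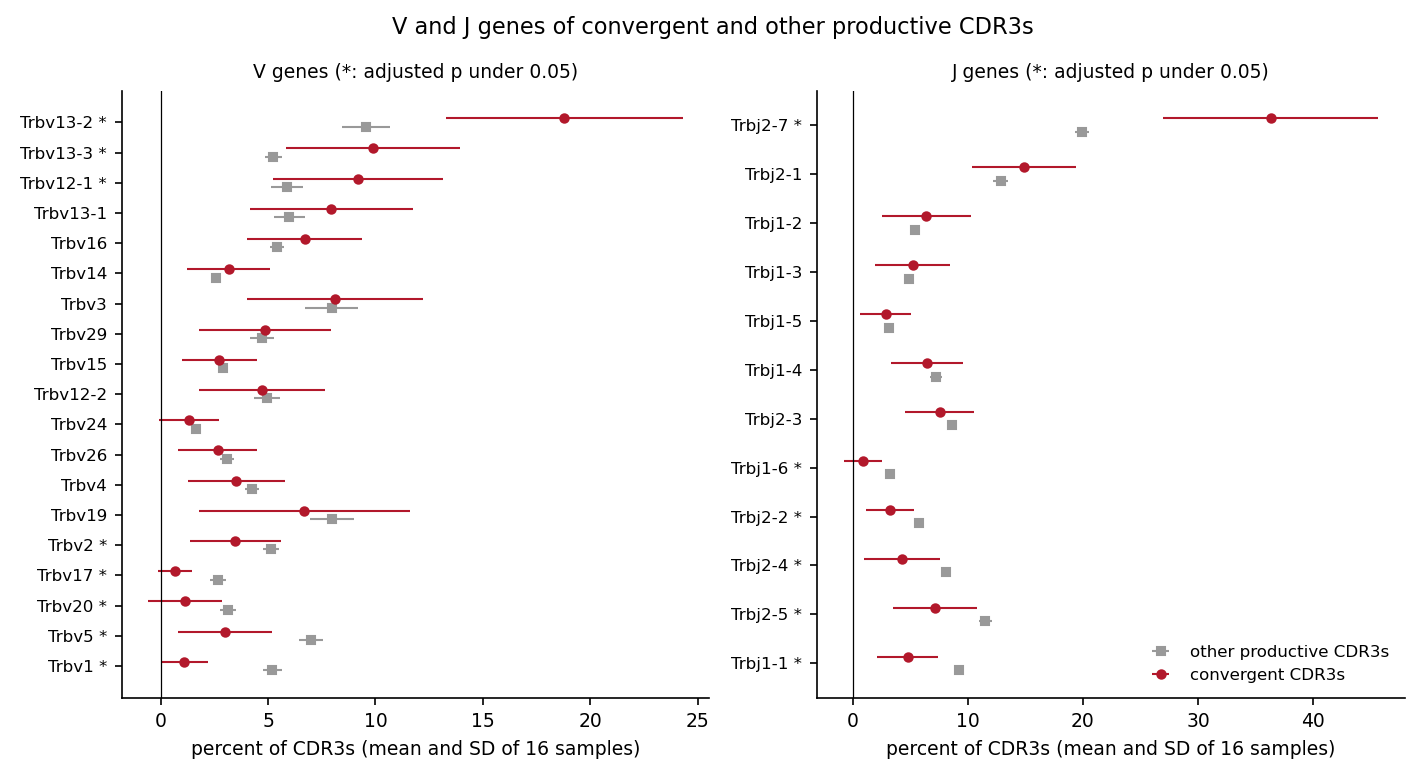
Percent of convergent (red circles) and other productive CDR3s (grey squares) whose leading rearrangement used each V gene (left) or J gene (right), as mean and SD of 16 samples, with a star at an adjusted p under 0.05. The widest gaps are at Trbv13-2 (18.8% and 9.57%) and Trbj2-7 (36.3% and 19.9%).

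Sharing of members between mice crossed the groups. Of 1631 members, 1203 (73.8%) were found in another sample with any number of rearrangements, and 462 in 8 or more. Of single-rearrangement CDR3s with 3 or more templates, 34.3% were found in another sample. Of the 1203, 685 (56.9%) were also found elsewhere with an identical 87-base rearrangement, and the other 43.1% were found elsewhere without an identical 87-base rearrangement. Among the 1224 different CDR3s, 1028 were convergent in 1 sample, 196 in 2 or more, 43 in 4 or more and 10 in 8 or more. Of the 196, 169 were convergent in mice of 2 or more groups, and 17 in mice of all 4 groups. Most pairs of mice belong to different groups, so sharing across groups is common whatever the treatment. The same count was not made for all productive CDR3s. With 3 CDR3 base sequences required, 110 of 445 different CDR3s recurred in 2 or more samples and 6 in all 4 groups. Any 2 samples shared between 0.517% and 1.72% of the rearrangements of the smaller one, so identical rearrangements in several mice were seen throughout and their source was not tested.

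The 6 CDR3s that were convergent in most samples differed in how many CDR3 base sequences they had. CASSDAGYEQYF, almost entirely TCRBV13-03 (99% of its templates), was convergent in 12 of the 14 samples that held it, through 98 different rearrangements but only 10 CDR3 base sequences. Its rearrangements numbered 5, 10, 1 and 29 in the control mice and 1, 19, 7 and 11 in the ANT008 mice. They numbered 18, 0, 5 and 0 in the anti-PD-1 mice and 14, 15, 5 and 20 in the combination mice. With 3 CDR3 base sequences required it stayed convergent in 4 samples. The 2 anti-PD-1 samples without it allow a share of up to 0.00949% and 0.0418% of productive templates.

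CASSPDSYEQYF was convergent in 12 of 15 samples, with 50 rearrangements and 24 CDR3 base sequences, and kept 3 base sequences in 9 samples. It was split between V genes, with TCRBV29-01 holding 73.5% of its templates. Its rearrangements numbered 2, 5, 0 and 7 in the control mice and 6, 3, 1 and 2 in the ANT008 mice. They numbered 12, 5, 4 and 5 in the anti-PD-1 mice and 4, 3, 3 and 5 in the combination mice, so that all 4 anti-PD-1 and all 4 combination mice held it as a convergent CDR3, and 2 of 4 mice in each of the other groups. With 3 CDR3 base sequences required it remained convergent in 4 anti-PD-1, 2 combination, 2 ANT008 and 1 control mice.

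A 15-residue CDR3 of TCRBV16-01 and TCRBJ02-07 was convergent in 12 of 15 samples, with 41 rearrangements and 15 CDR3 base sequences, and kept 3 base sequences in 5 samples. It had as many as 10 rearrangements in a control mouse, 5 in an ANT008 mouse, 13 in an anti-PD-1 mouse and 6 in a combination mouse.

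The remaining 3 were found in all 16 samples and convergent in 11. A 15-residue CDR3 with TCRBJ01-04 was small everywhere, at most 0.0455% of productive templates, and 77.6% of its entries had 1 template. It was nevertheless built from 37 rearrangements, 21 CDR3 base sequences and 14 V genes, of which TCRBV12-01 held most templates (31.7%). It is shown from ANT008 replicate 2 because rearrangements assigned to several V genes had the same run of bases there. Each line pools the rearrangements with its CDR3 bases and names the V gene of 1 with the most templates. Capitals mark differences from the first line.
TCRBV21-01, 4 templates: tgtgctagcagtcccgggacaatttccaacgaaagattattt
TCRBV19-01, 2 templates: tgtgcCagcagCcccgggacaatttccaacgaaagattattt
TCRBV12-01, 2 templates: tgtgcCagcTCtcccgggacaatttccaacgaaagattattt
TCRBV17-01, 2 templates: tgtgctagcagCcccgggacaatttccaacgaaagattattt
TCRBV14-01, 1 template: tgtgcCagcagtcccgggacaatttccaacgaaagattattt
All 21 base sequences ended on the same 18 bases, which 45.3% of in-frame TCRBJ01-04 rearrangements of the study also had.

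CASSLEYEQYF, the shortest of the 6 at 11 residues, had 28 rearrangements and 12 CDR3 base sequences, with 1.89 inserted bases on average. Its share of productive templates ranged from 0.00867% in ANT008 replicate 3, where it had only 1 template, to 0.489% in combination replicate 4, with 177. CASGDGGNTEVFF had 22 rearrangements, 17 CDR3 base sequences and the fewest inserted bases of the 6 (1.05), and its share stayed at or below 0.0873% in every mouse. It kept 3 CDR3 base sequences in 10 samples, and no CDR3 did so in more. It was convergent in 4 control, 2 ANT008, 1 anti-PD-1 and 4 combination mice.

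**Figure D5:**
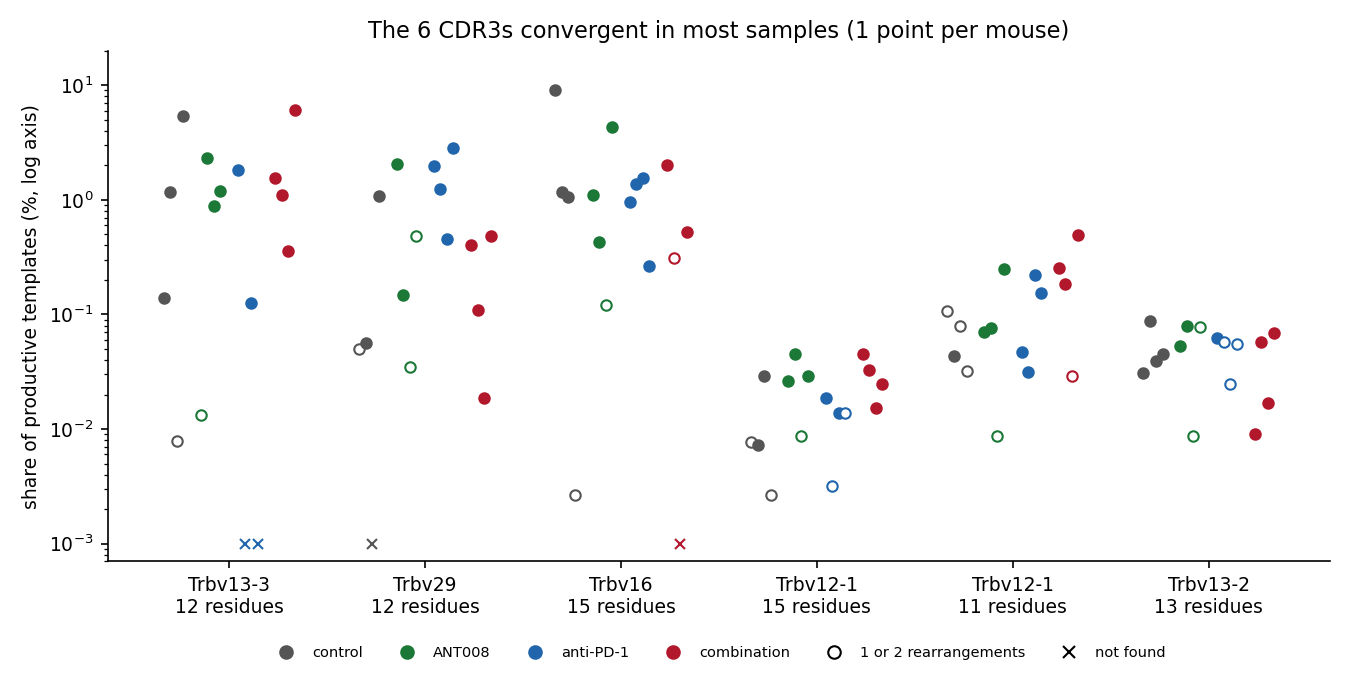
Share of productive templates (percent, log axis) of the 6 CDR3s convergent in most samples, labelled by their most frequent V gene and length, with 1 point per mouse coloured by group. Filled points had 3 or more rearrangements, open points 1 or 2, and crosses mark mice in which the CDR3 was not found; the 15-residue Trbv12-1 CDR3 stayed at or below 0.0455% in all mice.

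The members with the most rearrangements or the largest share in a mouse of each group had few CDR3 base sequences. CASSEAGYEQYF reached 39 rearrangements in combination replicate 3, the most of any member, with 16 V genes but 1 CDR3 base sequence. The leading rearrangement held 10570 of its 10661 templates (99.1%), and the CDR3 took 18.2% of productive templates there (17.9% to 18.5%, Wilson 95% interval). It was found in 2 other samples, both of ANT008. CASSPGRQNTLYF in anti-PD-1 replicate 1 had 17 rearrangements, 10 V genes and 1 CDR3 base sequence at 17.6% of templates, and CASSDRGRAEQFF in ANT008 replicate 3 had 15 rearrangements, 4 V genes and 1 CDR3 base sequence at 13.9%.

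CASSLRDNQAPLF, with 22 rearrangements and 14 V genes in anti-PD-1 replicate 3, differed from these in that it was found in 12 samples and convergent in 8, in mice of all 4 groups. Its rearrangements came from 4 CDR3 base sequences in that mouse, but the leading rearrangement held 99.3% of its 4294 templates.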

How the data were processed

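TCRβ rearrangements were surveyed in 16 tumor samples by the immunoSEQ service, in which V and J primers amplify the CDR3 region and a synthetic repertoire serves to correct primer bias. Per the file headers, the deposited lists held a template count for each unique 87-base rearrangement and the fraction of productive templates it took up. The counts divided by their sum equalled the deposited fraction within 9.97e-17. The V, D and J assignment, the reading frame, the CDR3 length and the inserted bases were made by the service, and the aligner and genome build are not given in the sources used here. No column of sequencing reads was used. Coordinates are left out because the build is not known. The 33 V gene names were matched to symbols of the GRCm38.p6 annotation.

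Convergent CDR3s were counted per sample over in-frame rearrangements, and different CDR3 base sequences over the bases from the V side of the CDR3 to the end of the read, which lacks its last 3 bases. Samples were grouped by treatment, and nothing but mouse number sets replicates apart, so p-values measure the spread between mice. Treated groups were compared with control by an exact permutation form of Dunnett's comparison, after the study's own choice of test, with Benjamini-Hochberg adjustment over 15 comparisons. Members and other CDR3s were compared within samples by permutation of paired differences over all sign flips. V and J genes were tested where members used them in 4 or more samples. The members, the named CDR3s and the tests were chosen with earlier results of these data known. Named CDR3s were the 6 convergent in most samples, and those with the most rearrangements and the largest share in a sample of each group. The base sequences of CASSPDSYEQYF, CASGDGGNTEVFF and the 15-residue CDR3 with TCRBJ01-04 were chosen after their values were seen. CDR3s of 15 or more residues are named by length and genes. Tools were Python 3.11.15, numpy 2.4.6, pandas 2.3.3, scipy 1.17.1, numba 0.67.0 and matplotlib 3.10.9, and the tests were checked on simulated data. Alternatives were other rules for what counts as a different rearrangement, thresholds of 2 and 4, 100 draws to 7180 templates, and leaving out each mouse. Intervals cover counting error only.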

Additional observations from a re-analysis of the deposited data

Results flagged for a closer look

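The median share of the leading rearrangement in ANT008 replicate 2 was 50%, while the other 3 ANT008 mice lay between 87.5% and 91.8%, and the gap was above Dixon's 95% critical value for 4 samples (ratio of gap to range 0.896). This was 1 of 20 combinations of measure and group examined, and chance marks about 1 in 20. Its 137 convergent CDR3s had a median of 6 templates, against 37.5 to 50 in the other ANT008 mice, and its productive templates were the most of that group (32935). The part of depth in this value was not tested.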

How the results depend on the processing

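Fewer inserted bases, shorter CDR3s and wider sharing of convergent CDR3s kept their direction and their side of the threshold under every alternative run, with differences from single-rearrangement CDR3s of -1.56 to -0.49 bases, -0.75 to -0.17 residues and 1.71 to 8.06 samples. The counts of V and J genes that passed depended on the rule. Of V genes, 1 of 11 tested passed with rearrangements of 1 template left out, 14 of 22 with 2 or more rearrangements required, 3 of 18 with CDR3 base sequences counted, and 0 of 7 with both changes (the last combination was chosen after seeing the data, as everywhere below). Of J genes, 1 of 11 passed with 1-template rearrangements left out and 1 of 5 with both changes. With CDR3 base sequences counted, 4 of 11 J genes passed and 2 of them were among the 6. All but the rule of 2 rearrangements left fewer genes to test.

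For the group comparisons, 2 results passed a raw exact permutation test only with 1-template rearrangements left out: the ANT008 template share (-25.5 points, p = 0.0389) and the ANT008 insertions, which turned to -1.02 (p = 0.0239). With CDR3 base sequences counted and 1-template rearrangements left out, the ANT008 leading share was -21.1 points (exact permutation p = 0.0294). Directions against control changed as follows, none past the threshold. For the number of convergent CDR3s (log2), anti-PD-1 turned to 0.11 with 2 or more rearrangements, 0.13 with CDR3 base sequences and 0.12 at equal depth, and ANT008 to 0.23 at equal depth. For the percent of CDR3s, the combination turned to -0.26 with 1-template rearrangements left out, -0.10 with 4 or more rearrangements, -0.19 with the same V and J gene required, -0.052 with both changes and -0.25 at equal depth, anti-PD-1 to 0.047 with CDR3 base sequences, and ANT008 to 0.053 with the same V and J gene. The anti-PD-1 template share turned to 0.28 points with CDR3 base sequences. For insertions, ANT008 turned to -0.0036 without near copies, -0.44 with 2 or more and -0.57 with 4 or more rearrangements, -0.30 with the same V and J gene and -0.56 at equal depth, anti-PD-1 to 0.17 with CDR3 base sequences and 0.38 with both changes, and the combination to 0.24 and 1.54 in the same order. The ANT008 leading share turned to 0.83 points with 2 or more rearrangements. The cause was not tested.

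Leaving out each mouse in turn changed a direction or a call in 7 group comparisons. The ranges were -0.65 to 0.60 for the anti-PD-1 number, -0.26 to 0.083, -0.38 to 0.0068 and -0.070 to 0.27 for the percent of CDR3s with ANT008, anti-PD-1 and the combination, -0.13 to 0.21 for ANT008 insertions, and -8.48 to 5.47 and -30.1 to -22.8 points for the leading share with ANT008 and the combination. The labels number the mice 1 to 4 in each group. Deviations from the group means, correlated between same-numbered mice over the group measures, had a mean r of -0.18 over 24 pairs, 6 above 0.1. The pairs ranged from -0.95 to 0.97. Each r rests on a few related measures, so it cannot show whether the numbers pair the mice. With the replicate number as a block the combination's leading share difference of -26.3 points had an exact permutation p of 0.139, and the block changed no call. With 4 mice per group and depths from 7180 to 72588 productive templates, the group differences seen here could not be told from the spread between mice.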

Other observations

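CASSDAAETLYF, named after its values were seen, was the next most recurrent convergent CDR3, in 9 samples with 21 different rearrangements and 455 templates. The 16-residue TCRBV01-01 CDR3 that took 18.2% of productive templates in control replicate 2 was found with 1 template in each of 2 anti-PD-1 mice and in no other sample.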
